A study of Mus musculus with 17 samples.

Results

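Genes that restrain NF-kB, or that NF-kB induces as its own feedback, were followed in a leukaemia cell line carrying different forms of the NF-kB subunit p65. They were chosen by name: every probe of the array whose gene name in the scanner files is Nfkbia, Nfkbib, Nfkbie, Nfkbiz, Bcl3, Tnfaip3, Tnip1, Tnip2 or Cyld. All 9 were on the array, among 30199 gene names, with 14 probes. Of these, 8 genes entered the tests, among 15254 genes tested, with 13 probes. Bcl3 did not, since its only probe was not well above background on any of the 17 arrays.

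RNA came from the Bcr-Abl positive mouse line DA1-3b (strain C3H eOuJ), transfected with plasmids for murine p65/RelA, and was read on 1-colour Agilent arrays. Of the 5 groups, 2 carried full-length p65, either wild type (WT, 4 arrays) or changed at a single residue (D361E, 4 arrays). The others carried the fragment 1-361 (3 arrays), the fragment 362-549 (3 arrays) and both fragments together, 1-361+362-549 (3 arrays). All groups share the cell line with its own Rela gene. The treatment text also names cells with a void plasmid, which were not analysed here, so every change is relative to another p65 plasmid. The labels give neither the promoter of the plasmids nor the time after transfection, and do not say whether a group is 1 line or several cultures. The p-values thus speak of array-to-array spread, part of which may be technical.

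NF-kB dimers are held in the cytoplasm by inhibitor proteins of the IkB family. Signals that activate the IKK kinases lead to ubiquitination and breakdown of IkB, and the freed dimers enter the nucleus and start transcription. Among the genes they induce are IkB proteins and ubiquitin-editing proteins that end the signal, so the RNA of these feedback genes is widely used as a readout of NF-kB activity. In p65 the N-terminal part holds the Rel homology domain, which binds DNA and pairs with other subunits, and the C-terminal part holds the transactivation domains.

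The promoters are shown first because NF-kB binds them directly in several of these genes. RefSeq promoters of build GRCm38.p6 were found for 8 of the 9 members, Nfkbiz being the exception, and the 250 bases before each start were searched on both strands for the NF-kB site consensus. That consensus spans 10 bases, opens with GGG and closes with CC. A match on the strand opposite to the gene is therefore printed as opening with GG and closing with CCC. A match lay before a start of 5 of the 8 members, namely Nfkbia, Nfkbie, Tnfaip3, Tnip1 and Cyld. Over the whole table, 1281 of 32851 windows (3.9%), or 1204 of 27025 genes (4.46%), held one. No match was found for Nfkbib, Bcl3 or Tnip2, nor for the other of the 2 starts listed for Tnfaip3. Each line below gives 60 bases 5′ to 3′ on the gene's strand, with the matching bases in capitals. In Tnip1 they are overlapping matches in 1 palindrome, and Tnfaip3 has 2 separate matches. The matches of Nfkbia and Cyld, and that in the second Tnfaip3 line, are on the opposite strand.
Nfkbia, chr12:55492648-55492707, minus strand: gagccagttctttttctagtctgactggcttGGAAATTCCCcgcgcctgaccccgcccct
Tnfaip3, chr10:19015501-19015560, minus strand: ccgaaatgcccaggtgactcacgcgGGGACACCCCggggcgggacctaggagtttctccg
Tnfaip3, chr10:19015411-19015470, minus strand: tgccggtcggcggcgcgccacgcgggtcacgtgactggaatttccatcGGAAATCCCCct
Nfkbie, chr17:45555569-45555628, plus strand: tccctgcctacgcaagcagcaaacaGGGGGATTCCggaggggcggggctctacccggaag
Tnip1, chr11:54962963-54963022, minus strand: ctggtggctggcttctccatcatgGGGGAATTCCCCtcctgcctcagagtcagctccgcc
Cyld, chr8:88696848-88696907, plus strand: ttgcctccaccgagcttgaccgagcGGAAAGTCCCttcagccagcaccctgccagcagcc
The match of Nfkbia ended 19 bases before its start, and the nearer match of Tnfaip3 ended 2 bases before it. Those of Tnip1, Nfkbie and Cyld ended 46, 96 and 145 bases before their starts. A match describes the letters only. As given below, RNA of 3 of these 5 genes differed between constructs (Nfkbia, Tnfaip3 and Nfkbie), and no change of Tnip1 or Cyld passed the test.

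Levels are log2 signals relative to the 75th percentile of the same array, and a level is compared only within 1 probe. Changes are log2 differences ± SE from limma. A change was called at a Benjamini-Hochberg adjusted p under 0.05 over all 15254 genes. Between 19262 and 21118 probes of an array were well above background. Arrays of 1 group correlated at 0.966 or more over all genes, and the array standing farthest from its group was 1-361+362-549 replicate 3, at 0.966 and 0.977 against 0.994 between the other two of that group. Rela itself read between 4.62 and 4.94 on the 17 arrays and was not called in any comparison, and where its probe lies relative to the plasmid inserts was not checked. Of 8 markers of the blood line, 5 were well above background on every array and Kit on none. Markers moved between groups. With both fragments against WT, where 5.13% of all genes were called, 1 of 5 tested blood line markers was lower, all 5 being below 0. This was Csf2rb, which fell by 1.17 ± 0.15 (adjusted p = 1.1e-04). Lower as well were 3 of 5 mast cell, 2 of 5 T cell and 1 of 4 macrophage markers. The last was Adgre1, at least 10.6-fold lower (adjusted p = 2.6e-07). Among these, Mcpt8 (mast cell) and Cd3g (T cell) were dim, being at least 1.85-fold and 1.13-fold lower. Only 2 of 5 T cell markers were below 0 there. Relative to WT, 2 of 5 T cell markers were higher with 1-361 and 1 of 5 with 362-549, where 0.715% of all genes were called in each. Of 5 mast cell markers, 2 were lower with 1-361, 1 with D361E (0.485% of all genes called) and 0 with 362-549, and 0 were higher. Cpa3 fell by 2.12 ± 0.35 with 1-361 (adjusted p = 0.0063) and by 2.54 ± 0.33 with D361E (adjusted p = 8.1e-04). Fcer1a was at least 2.3-fold lower with 1-361 (adjusted p = 1.2e-04). In the erythroid list Hbb-b2 rose relative to WT by 5.37 ± 0.32 with 362-549 (adjusted p = 2.2e-07). It also rose by 2.91 ± 0.32 with 1-361 (adjusted p = 1.2e-04) and by 2.33 ± 0.30 with D361E (adjusted p = 8.4e-04). With both fragments Klf1 fell by 0.84 ± 0.18 and Epor rose by 0.44 ± 0.11 (adjusted p = 0.011 and 0.029). The part of the markers in the results below was not tested. Less RNA per cell and fewer cells of a kind cannot be told apart in such samples.

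The question put to WT was which feedback genes differ when p65 is mutated or given as fragments. Against WT, Nfkbia and Tnfaip3 were lower with 1-361, with 362-549 and with both, and no other member was called. The count was 2 of 8 in each of these 3 comparisons, both lower, where 0.715% of all genes were called with 1-361, 0.715% with 362-549 and 5.13% with both fragments. With D361E 0 of 8 were called by limma, where 0.485% of all genes were, and 2 had an unadjusted p under 0.05 (Nfkbie and Tnfaip3). The median change of the 8 members was -0.02 with D361E, -0.11 with 1-361, -0.10 with 362-549 and -0.22 with both, beside all-gene medians from 0.03 to 0.05. These comparisons share the WT arrays, so they are not independent of each other.

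**Figure D1:**
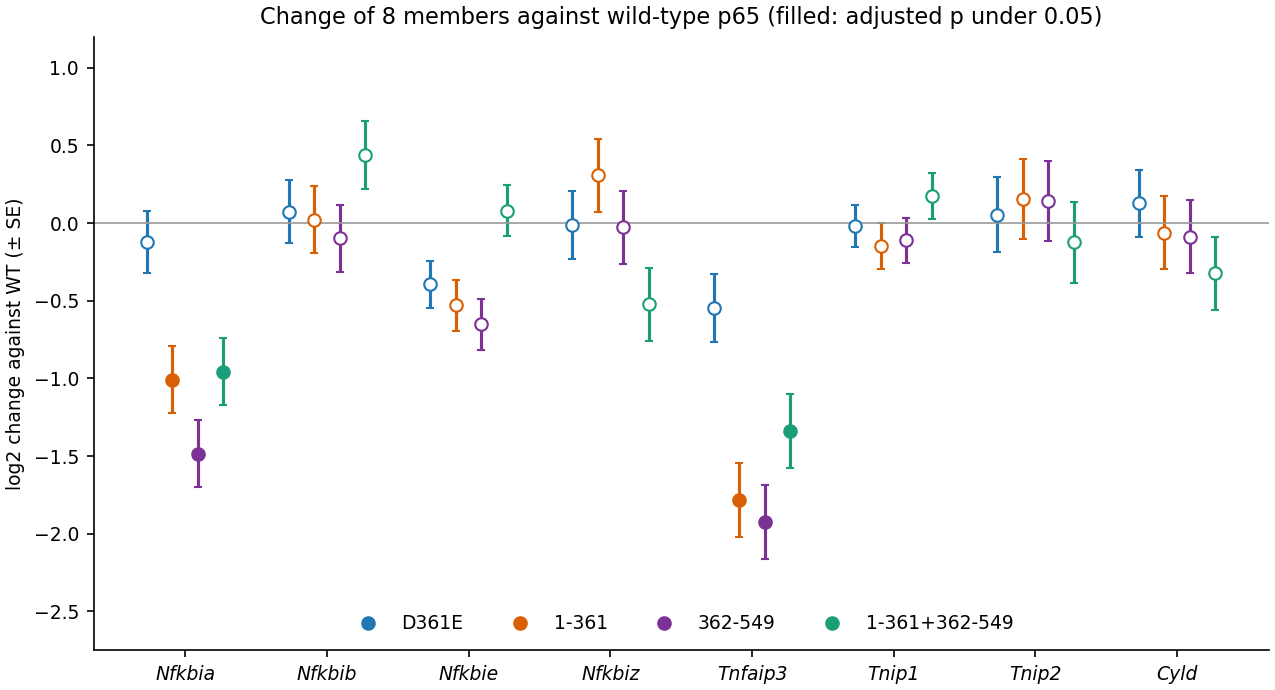
Log2 change against WT for the 8 tested members (points, error bars are SE) in D361E, 1-361, 362-549 and 1-361+362-549, with filled points at an adjusted p under 0.05. Only Nfkbia and Tnfaip3 have filled points, all below 0 and none of them in D361E.

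Nfkbia encodes IkB alpha, the inhibitor that masks p65 dimers and is resynthesised once NF-kB has been active. It was read by 1 probe, shown here in its 60 bases since it crosses an exon junction and so reads spliced RNA: mm9 chr12:56590945-56591440, minus strand.
Nfkbia probe: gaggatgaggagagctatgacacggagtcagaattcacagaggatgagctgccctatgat
Its span of 496 bases on the genome exceeds the probe's own length for that reason. The level of Nfkbia was 5.09, 4.84, 5.16 and 5.04 on the WT arrays and 5.09, 5.11, 4.67 and 4.79 on the D361E arrays. It was 4.01, 3.73 and 4.33 with 1-361, 3.45, 3.13 and 4.07 with 362-549, and 4.31, 3.77 and 4.15 with both fragments. All 9 fragment arrays lay below all 8 arrays of full-length p65, while WT and D361E overlapped, as did the 3 fragment groups.

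Relative to WT, Nfkbia fell by 1.48 ± 0.22 with 362-549, to 0.357 of the WT level (adjusted p = 0.0019). It fell by 0.96 ± 0.22 with both fragments (adjusted p = 0.016) and by 1.01 ± 0.22 with 1-361 (adjusted p = 0.044). With D361E the difference was -0.12 ± 0.20 (adjusted p = 0.9999). The lower level with 362-549 passed in all 28 alternative settings. With 1-361 it passed in only 8 of 28: when 1 array was left out it stayed called only without 1-361 replicate 3, 362-549 replicate 2 or 3, or 1-361+362-549 replicate 2, with values from -1.16 to -0.86. The call with both fragments was lost without 1-361+362-549 replicate 2 (-0.80, adjusted p = 0.11), without scaling (-0.77, adjusted p = 0.10) and with normexp (-0.90, adjusted p = 0.086).

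Tnfaip3 encodes A20, a ubiquitin-editing enzyme that shuts off signalling from TNF and Toll-like receptors to IKK. Its 1 probe (mm9 chr10:18720776-18720835, minus strand) gave levels of -0.27, -0.42, -0.34 and -0.09 with WT and of -1.13, -0.82, -1.0 and -0.36 with D361E. With 1-361 the levels were -1.98, -2.02 and -2.19, with 362-549 they were -2.39, -2.48 and -1.74, and with both fragments -1.18, -1.53 and -2.16. WT was highest, and only D361E replicate 4 reached into its range. The 1-361 and 362-549 arrays lay below every D361E array, and so did those with both fragments, of which replicate 1 was closest to D361E.

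Relative to WT, Tnfaip3 fell by 1.92 ± 0.24 with 362-549, to 0.264 of the WT level (adjusted p = 5.1e-04). It fell by 1.78 ± 0.24 with 1-361 (adjusted p = 8.1e-04) and by 1.34 ± 0.24 with both fragments (adjusted p = 0.0027). With D361E it was -0.55 ± 0.22 (adjusted p = 0.80), the value of an uncalled difference. All 3 called changes kept their call whichever array was left out, and the last was lost without scaling (-1.15, adjusted p = 0.056).

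**Figure D2:**
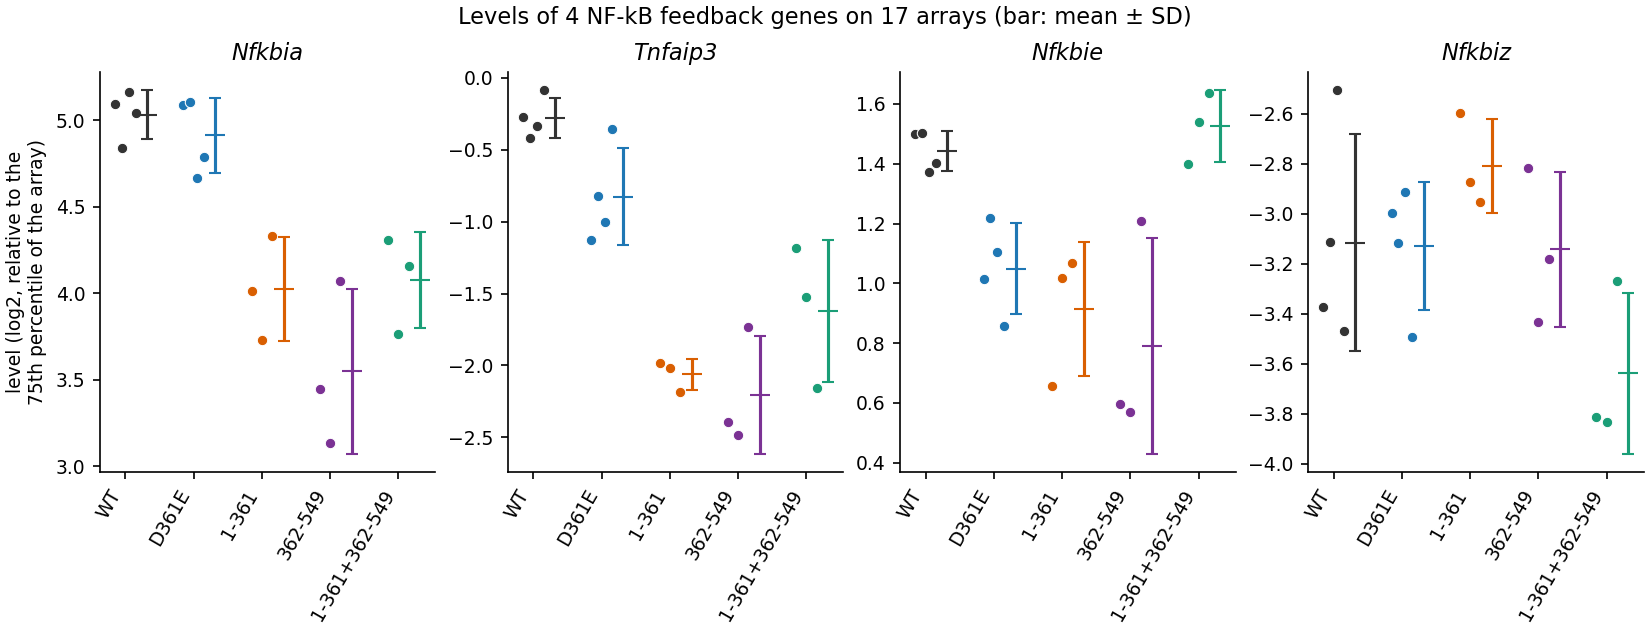
Level of Nfkbia, Tnfaip3, Nfkbie and Nfkbiz on each of the 17 arrays (points; log2 relative to the 75th percentile of the array) by group, with the mean and SD as a bar beside the points. Nfkbia and Tnfaip3 are lower in the 3 fragment groups, whereas Nfkbie with both fragments lies at the WT level.

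Each array is part of 1 of 6 slides, and every slide held at least 2 groups, so slide was also fitted as a block. This lowered the residual degrees of freedom from 12 to 7 and raised the median SE of the called changes from 0.23 to 0.27. With it, Nfkbia and Tnfaip3 stayed called in 362-549 against WT (-1.56, adjusted p = 0.026, and -1.89, adjusted p = 0.0081). Tnfaip3 in 1-361 against WT was -1.63 (adjusted p = 0.051) and with both fragments -1.28 (adjusted p = 0.094). Nfkbia was -0.93 with 1-361 (adjusted p = 0.66) and -0.84 with both (adjusted p = 0.38). Within single slides that held both groups, the change of Tnfaip3 was -1.85 to -1.74 for 1-361 (2 slides), -2.30 to -1.31 for 362-549 (3 slides) and -1.25 for both fragments (1 slide). That of Nfkbia was -1.36 to -0.83, -2.03 to -0.77 and -1.33. The direction was thus the same within each slide, although most calls were lost with the block.

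**Figure D3:**
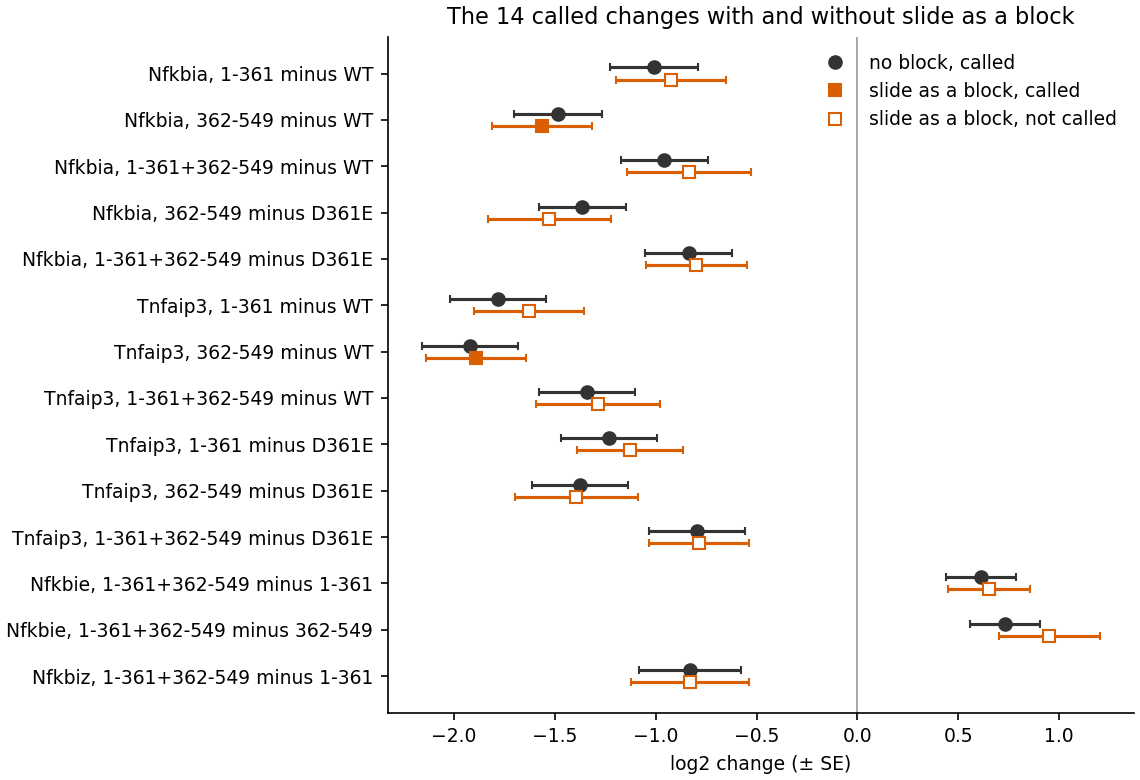
The 14 called changes of members (log2 change, error bars are SE) without a block (circles) and with slide as a block (squares, filled where still called). Every pair of points lies on the same side of 0, and 2 squares are filled, both for 362-549 minus WT.

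Set against D361E, the full-length mutant, the same genes were lower with the fragments. Tnfaip3 was the 1 member called with 1-361 (1.02% of all genes were called) and fell by 1.23 ± 0.24 (adjusted p = 0.017). With 362-549 (1.28% of all genes called) the 2 called members were Tnfaip3, which fell by 1.38 ± 0.24 (adjusted p = 0.0066), and Nfkbia, which fell by 1.36 ± 0.22 (adjusted p = 0.0032). With both fragments (9.69% of all genes called) they were Nfkbia, which fell by 0.84 ± 0.22 (adjusted p = 0.023), and Tnfaip3, which fell by 0.79 ± 0.24 (adjusted p = 0.048). Nfkbia with 1-361 differed by -0.89 ± 0.22 from D361E, without overlap of arrays, but missed the threshold (adjusted p = 0.077) and passed it without 362-549 replicate 3 (adjusted p = 0.030).

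All 5 of these calls against D361E were lost with slide as a block (adjusted p from 0.11 to 0.22, at values between -1.53 and -0.79). Within single slides they ran from -1.66 to -0.18, the value nearest 0 being Tnfaip3 with both fragments on 1 slide. Of 17 arrays left out in turn, Nfkbia in 362-549 kept its call in all 17. Tnfaip3 in 362-549 lost it without 362-549 replicate 2 (-1.24, adjusted p = 0.058). Nfkbia with both fragments lost it without 1-361+362-549 replicate 2 (-0.68), D361E replicate 1 (-0.78) or D361E replicate 2 (-0.77). Tnfaip3 in 1-361 lost it without any of the 3 arrays of 1-361 or without D361E replicate 2 or 4, at -1.27 to -1.08. Tnfaip3 with both fragments was called in only 2 of the 17, those without 1-361+362-549 replicate 1 or 362-549 replicate 3, and was -0.53 without 1-361+362-549 replicate 3.

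The 2 fragments given alone were compared directly as well. No member was called between 362-549 and 1-361 by limma (0 of 8, and 0 with an unadjusted p under 0.05), where 0.629% of all genes were. Nfkbia was -0.48 ± 0.23 and Tnfaip3 was -0.14 ± 0.25 in 362-549 relative to 1-361. Their arrays overlapped, and a missed threshold does not show that the fragments act alike.

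Nfkbie encodes IkB epsilon, an inhibitor that NF-kB induces later and at a slower pace than IkB alpha. Its 1 probe lies at mm9 chr17:45700000-45700059, plus strand. It had another order of levels from the pair above: 362-549, 1-361 and D361E were lowest, and WT and both fragments highest. The levels were 1.5, 1.5, 1.37 and 1.40 with WT, 1.01, 1.22, 1.10 and 0.86 with D361E, and 0.66, 1.02 and 1.07 with 1-361. They were 0.60, 0.57 and 1.21 with 362-549 and 1.40, 1.54 and 1.64 with both fragments. No array of D361E, 1-361 or 362-549 reached the WT arrays, whereas the arrays with both fragments overlapped them.

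Together, 1-361 and 362-549 gave a higher level of Nfkbie than either alone. It rose by 0.61 ± 0.17 relative to 1-361 (adjusted p = 0.036) and by 0.73 ± 0.17 relative to 362-549 (adjusted p = 0.013), which is 1.53 and 1.66 times the level. Relative to WT, Nfkbie was -0.40 ± 0.15 in D361E (adjusted p = 0.74), -0.53 ± 0.16 with 1-361 (adjusted p = 0.31) and -0.65 ± 0.16 with 362-549 (adjusted p = 0.12). None of these was called, although no arrays overlapped. The last was called without 362-549 replicate 3 (-0.86, adjusted p = 0.014). With slide as a block the changes of both fragments were 0.65 against 1-361 (adjusted p = 0.12) and 0.95 against 362-549 (adjusted p = 0.12), and no slide held both of the latter groups. On 2 slides the change against 1-361 was 0.98 and 0.52.

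The call against 362-549 held for 16 of 17 arrays left out and was lost without 362-549 replicate 1 (0.64, adjusted p = 0.052). Against 1-361 it held for 11 of 17. It was lost without any array of 1-361 (0.48 to 0.69), without 1-361+362-549 replicate 1 (0.67) or 2 (0.60), or without WT replicate 2 (0.61).

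Nfkbiz encodes IkB zeta, a nuclear member of the family that works with p50 at selected promoters. Its 1 probe (mm9 chr16:55817859-55817918, minus strand) read -3.37, -3.11, -2.51 and -3.47 with WT, -3.0, -3.12, -2.91 and -3.49 with D361E, and -2.60, -2.87 and -2.95 with 1-361. With 362-549 it was -2.82, -3.43 and -3.18, and with both fragments -3.81, -3.83 and -3.27. Nfkbiz was the lowest with both fragments, where 2 of 3 arrays lay below all others and replicate 3 lay within the range of WT.

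It fell by 0.83 ± 0.25 with both fragments relative to 1-361 (adjusted p = 0.048), the opposite direction to Nfkbie in the same comparison. In that comparison 2 of 8 members were called, 1 in each direction, where 11.2% of all genes were. Against 362-549, 1 of 8 was called (Nfkbie), where 14.6% of all genes were, which is a share near the background. The Nfkbiz call was kept in 8 of 28 alternative settings. It held without 1-361+362-549 replicate 3, D361E replicate 4, 362-549 replicate 1 or WT replicate 3 or 4, and was lost without any of the other 12 arrays (-0.90 to -0.72). With slide as a block it was -0.83 (adjusted p = 0.16), and within 2 slides -0.96 and -0.67. Over the 28 alternative settings its value ran from -1.02 to -0.09. Without scaling between arrays the call was lost, and the median of all genes in that comparison moved to 0.39.

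Nfkbib, Tnip1, Tnip2 and Cyld were called in none of the 10 comparisons in the fit without a block. Nfkbib encodes IkB beta, an inhibitor released more slowly than IkB alpha. Its brightest probe was highest with both fragments on replicates 1 and 2 (1.89 and 1.85), but replicate 3 (0.96) lay among the other groups, which ran from 0.87 to 1.57. The change of Nfkbib with both fragments was 0.44 ± 0.22 relative to WT (adjusted p = 0.31), and without replicate 3 of that group it was 0.74 (adjusted p = 0.026). Without that array, whose title run is described below, Nfkbib was also called against D361E (0.67), 1-361 (0.72) and 362-549 (0.84). The other probes of Nfkbib were highest in the same group, at a mean of -0.28 beside -0.99 to -0.68 elsewhere and -3.49 beside -4.53 to -3.87. The dimmer of them was well above background on 15 of 17 arrays.

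Tnip1 encodes ABIN-1, a partner through which A20 reaches its ubiquitinated targets. Its level was 3.06 to 3.29 with WT, 3.09 to 3.28 with D361E, 3.00 to 3.11 with 1-361 and 2.92 to 3.36 with 362-549. With both fragments it was 3.56, 3.49 and 3.04, again with replicate 3 apart from the others. Tnip1 was 0.32 ± 0.16 above 1-361 (adjusted p = 0.19) and 0.29 ± 0.16 above 362-549 (adjusted p = 0.22) with both fragments. Without replicate 3 these became 0.48 (adjusted p = 0.031) and 0.45 (adjusted p = 0.039). Its other probe ordered the 5 groups in the same way.

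Tnip2 encodes ABIN-2, a second A20-binding inhibitor, and Cyld encodes a deubiquitinase that strips ubiquitin chains from NF-kB signalling proteins. Without a block, their changes against WT ran from -0.12 ± 0.26 to 0.15 ± 0.26 for Tnip2 and from -0.32 ± 0.24 to 0.13 ± 0.22 for Cyld. Group means of Tnip2 ran from 0.72 to 1.00 with SDs of 0.29 to 0.40, and those of Cyld from -0.09 to 0.36 with SDs of 0.22 to 0.38. The range between group means was 0.28 for Tnip2, less than the SD of any group, and 0.45 for Cyld. The 2 probes of Tnip2 overlap on the genome, so they are not separate readings of it. The dimmer probe of Cyld was not called either. Against WT it differed by 0.05 ± 0.39 with 1-361 and 0.27 ± 0.39 with 362-549, where the brighter probe gave -0.06 and -0.09. With D361E and with both fragments the 2 probes of Cyld had the same sign. Bcl3, which encodes a nuclear IkB protein that works with p50 and p52 homodimers, read -7.56 to -6.58 and was not well above background on any array. No level or change can be given for it.

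The spread of these members within groups followed another label. The sample titles open with numbers that form 4 consecutive runs, each with at most 1 array of a group, and the labels do not say what a run is. Runs 1, 2 and 3 each hold 1 array of every group, and run 4 holds 1 of WT and 1 of D361E. In the third run Tnip2 was the highest of its group in all 5 groups, by both probes, and so was the brighter probe of Cyld. The dimmer probe of Cyld was the highest there in only 1 of the 5 groups. Tnip2 averaged 1.30 over the third run and 0.84, 0.68 and 0.48 over runs 1, 2 and 4. Nfkbib was the lowest of its group there in all 5 groups by 2 of its 3 probes, with run means of 1.29, 1.31, 0.93 and 1.47. Such patterns were common: 13.2% of all genes tested were highest and 13.1% lowest in the third run in all 5 groups. Tnfaip3 and Nfkbia had no such order, each being highest in the third run in 1 and 2 of the 5 groups. 1-361+362-549 replicate 3, the array named above for Nfkbib and Tnip1, belongs to the third run. Leaving it out keeps the third-run arrays of the other groups, so those changes compare groups with unequal shares of that run. Within the third run the brightest Nfkbib probe read 0.96 with both fragments, beside 0.87 to 0.98 in the other groups. In runs 1 and 2 both fragments were the highest group, at 1.89 and 1.85.

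**Figure D4:**
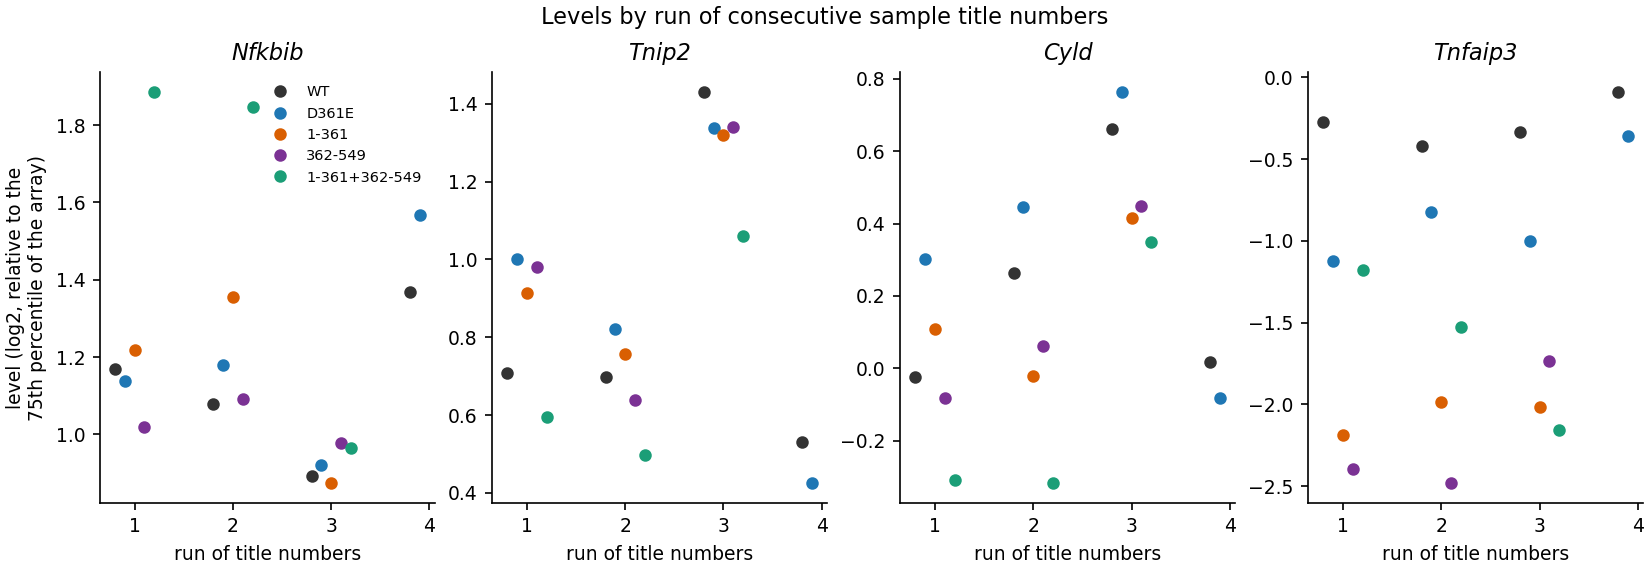
Level (log2 relative to the 75th percentile of the array) of Nfkbib, Tnip2, Cyld and Tnfaip3, each by its brightest probe, by run of consecutive sample title numbers, 1 point per array, coloured by construct. In run 3 Tnip2 and Cyld are the highest and Nfkbib the lowest of every construct, whereas WT is the highest construct in Tnfaip3 in every run.

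Over the 17 arrays, Nfkbia and Tnfaip3 were each other's closest gene among 13657 genes well above background everywhere. Their Pearson correlation was 0.87, which is a description of arrays that share the 5 groups. For deviations from the group means, the correlation of the same pair was 0.28. After Tnfaip3, Nfkbia was nearest to Aif1 (0.83), a calcium-binding protein of myeloid cells, and to the transcript AK141540 (0.80). Tnfaip3 was next nearest to Icam1 (0.85), the adhesion molecule that NF-kB induces in many cells, and to Snx10 (0.82), a sorting nexin. Nfkbie followed Limd2 (0.87), the cytokine Il6 (0.84) and the complement regulator Cd55 (0.83). Nfkbiz followed Dtx3 (0.89), 2610002M06Rik and Eml5 (both 0.88).

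**Figure D5:**
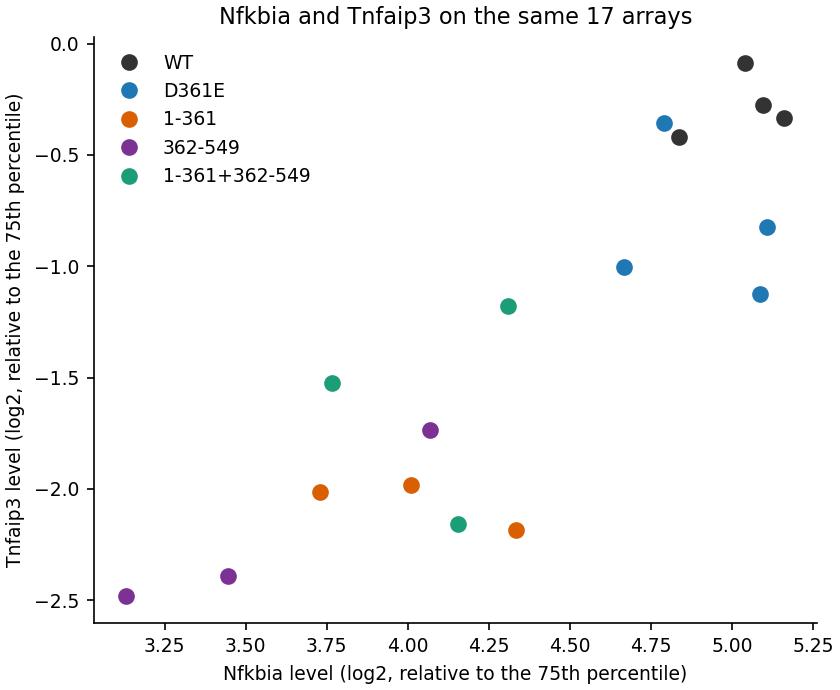
Level of Nfkbia against that of Tnfaip3 on the same 17 arrays (log2 relative to the 75th percentile, 1 point per array, coloured by construct). The 8 arrays of WT and D361E lie at the upper right, at Nfkbia levels from 4.67 upward, and the 9 fragment arrays lie at 4.33 or below in Nfkbia.

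Across the 5 groups the F-test called Tnfaip3 (adjusted p = 1.5e-04), Nfkbia (adjusted p = 8.1e-04) and Nfkbie (adjusted p = 0.026), which is 3 of 8 where 8.9% of all genes were called. In the order of F-test p-values over all 15254 genes they ranked 224, 343 and 934.

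The rest of the pathway is given by lists. Of 14 other negative regulators of NF-kB tested, 0 were called against WT by limma with any of the 4 constructs. Of 11 ligases and adaptors of the TNF receptor complex, 1 was called: Traf1, an adaptor that is itself an NF-kB target, fell by 1.14 ± 0.23 with 362-549 (adjusted p = 0.027). Of 11 NF-kB subunits and activating kinases, none was called with D361E, 1-361 or 362-549, and 2 were higher with both fragments, where 5.13% of all genes were called. These were Relb, which rose by 0.95 ± 0.21 (adjusted p = 0.014), and Nfkb2, the precursor of p52, which rose by 0.80 ± 0.19 (adjusted p = 0.021). RelB and p52 form the dimer of the alternative NF-kB pathway. In that group Nfkbia and Tnfaip3 were lower, so its genes did not move one way.

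Among 22 tested NF-kB targets outside the feedback loop, the median change was -0.50 with 362-549, -0.20 with 1-361, -0.18 with both and 0.04 with D361E. With 362-549, where 0.715% of all genes were called, 4 were lower and 0 higher: Lta (at least 3.86-fold, being not well above background with 362-549, adjusted p = 0.0045), Il6 (fell by 1.62 ± 0.30, adjusted p = 0.014), Ltb (fell by 1.21 ± 0.23, adjusted p = 0.016) and Icam1 (fell by 1.24 ± 0.26, adjusted p = 0.036). All but the adhesion molecule are cytokines. With 1-361, at the same 0.715% of all genes, 2 were lower: the chemokine Ccl5 fell by 1.63 ± 0.30 (adjusted p = 0.012) and Lta by 1.72 ± 0.36 (adjusted p = 0.038), with 1 of 3 arrays of 1-361 well above background for Lta.

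With both fragments 5 of the 22 targets were lower and 2 higher, where 5.13% of all genes were called. Ccl4 fell by 3.09 ± 0.39 (adjusted p = 1.2e-04), Csf1 by 2.00 ± 0.24 (adjusted p = 7.8e-05) and Ier3, a stress response gene, by 0.97 ± 0.17 (adjusted p = 0.0026), and Ccl5 was lower as well. Ccl3 was at least 2.06-fold lower (adjusted p = 1.5e-05) and not well above background on those arrays, beside 3 of 4 WT arrays. Olr1 and Bcl2a1d were the 2 that were higher. With D361E, in which no feedback member was called, Ccl3 rose by 2.42 ± 0.25 (adjusted p = 1.0e-04) and Olr1 by 1.27 ± 0.24 (adjusted p = 0.027). For an "at least" fold, the dim group's level on each array was taken as its own signal or the array's detection limit, whichever was higher. That limit is the weakest signal still well above background.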

How the data were processed

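Spots of 1-colour arrays were deposited as linear intensity values. According to the file headers, Agilent Feature Extraction 10.7.3.1 (array design 026655, coordinates on mm9) had subtracted background and detrended each array; the submitters' processing notes also name it. The authors' value table for the whole series, as deposited, equals these processed signals (largest relative difference 0). Here the log2 of the processed signal was taken and the array's 75th percentile subtracted. Control and outlier spots were dropped, spots of a probe averaged, and probes kept where every array of some group was well above background (19769 probes). A gene was read by its brightest probe. Members were taken by the files' own gene names and other genes through RefSeq accessions (27508 probes named).

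The 10 contrasts between groups, and an F-test over the 4 against WT, came from a single limma model (limma 3.58.1, R 4.3.3, lmFit and eBayes; data.table, version 1.17.8), which was tested on simulated data. The simulated arrays had independent noise, so that test cannot show how the model behaves with spread shared by arrays of a title run. The Benjamini-Hochberg adjustment ran over all genes. Replicates are numbered by order of deposit. Precision is limited by the number of arrays. The members and gene lists were chosen with earlier results of these data known. Genes are named by a written rule: the members, up to 4 called genes per list and contrast against WT, and the 3 genes most correlated with each called member. Named outside that rule were Rela, Bcl2a1d, the cell type markers and some genes of the other observations. Promoters were searched with Python 3.11.15 and plots drawn with matplotlib 3.10.9. Alternatives were other scalings, normexp with offset 50, other filters and probe rules, slide or title run as a block, only the 2 groups compared, and each array left out.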

Additional observations from a re-analysis of the deposited data

How the results depend on the processing

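All 14 called changes of members kept their sign under each of 28 alternatives. Nfkbia and Tnfaip3 in 362-549 against WT were the 2 that also kept their call under every one, and the number called there was 2 to 3 with 1 array left out. With slide as a block the number of members called was 0 in the 7 other comparisons that had any, and 2 by the F-test. With normexp it was 1 for 1-361 against WT, both fragments against WT, 362-549 against D361E and both fragments against D361E, and 0 for 1-361 against D361E and for both fragments against either fragment. Quantile scaling gave 1 for 1-361 against WT and for both fragments against D361E, and 0 for both fragments against 1-361. Without scaling, which moved the median change of all genes by up to 0.61, it was 0 for both fragments against WT and 1-361 against D361E, 1 for both fragments against D361E and against 1-361, and 5 against 362-549. Each probe tested alone gave 1 for 1-361 against WT and for both fragments against D361E and 1-361. The filter for all arrays gave 1 for 1-361 against WT, and no filter gave 1 there and 0 for both fragments against D361E and 1-361. Slide as a random block (correlation -0.05) gave 1 for the last 2. Fitting only the 2 groups gave 1 for 1-361 against WT, and 0 for 362-549 and both fragments against D361E and for both against either fragment. The causes were not tested.

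With 1 array left out in turn, the number called was 1 to 2 for 1-361 against WT, 1 to 3 for both fragments against WT, 0 to 2 for 1-361 against D361E, 1 to 2 for 362-549 against D361E, and 0 to 3, 0 to 5 and 0 to 4 for both fragments against D361E, 1-361 and 362-549. The labels do not say whether the title-number runs pair samples, and the main fit had no term for them. Deviations from the group means correlated at -0.18 to 0.73 for arrays of 1 run (median 0.38, and 0.61 in run 3). For arrays of different runs and groups the median was -0.14. Deviations sum to 0 within each group, so this value is not independent of the others. As a block the title-number runs gave more calls: 5 for both fragments against WT, 7 against D361E, 4 against 1-361 and 3 against 362-549, 2 for 1-361 against D361E and 5 by the F-test. Under that block 4688 to 6078 of 15254 genes were called with both fragments against another group. The calls it added there were Nfkbib against all 4 other groups (0.42 to 0.54), Cyld against WT (-0.43, adjusted p = 0.012) and D361E (-0.56, adjusted p = 0.0025), Tnip2 against D361E, 1-361 and 362-549 (-0.31 to -0.27), Nfkbiz against WT (-0.64) and D361E (-0.63) and Nfkbie against D361E (0.44). Of the 66 uncalled changes, 36 kept their sign under every alternative and 19 were called under some.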

Other observations

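Further genes of the pathway differed between both fragments and the single constructs. Relb was 1.51 ± 0.23 above 1-361 (adjusted p = 6.2e-04) and 1.62 ± 0.23 above 362-549 (adjusted p = 2.5e-04), and Nfkb2 was 1.01 ± 0.20 and 0.93 ± 0.20 above them (adjusted p = 0.0059 and 0.0080). Ripk1, a kinase of the TNF receptor complex, was 0.83 ± 0.20 above 1-361 (adjusted p = 0.017) and 0.81 ± 0.20 above 362-549 (adjusted p = 0.015). Spata2, the adaptor that brings CYLD to that complex, was 0.47 ± 0.14 and 0.48 ± 0.14 above them (adjusted p = 0.043 and 0.032), while Cyld itself was called against neither. Of the 22 NF-kB targets, 8 were higher and 5 lower with both fragments than with 362-549. There 14.6% of all genes were called, 38.8% of them higher, a share that became 94.2% without scaling between arrays and 50% with quantile scaling. Il6 was among the higher (1.79 ± 0.32, adjusted p = 0.0021), as Nfkbie was, and Ccl4 among the lower (-3.53 ± 0.42, adjusted p = 5.2e-05). These adjusted p-values are from limma over all genes. The genes of this paragraph other than Relb, Nfkb2, Nfkbie, Cyld, Il6 and Ccl4 were picked after their values were seen.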
